A study of Brachypodium distachyon with 12 samples.

Results

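The comparison described here sets vascular bundles (VBs) with several protoxylem cells against parenchyma, in the shoot apex of the grass Brachypodium distachyon. It uses 6 of the 12 RNA-seq libraries of the experiment, chosen by their labels alone: the 3 replicates of VB type 3, in which 3 to 4 protoxylem cells were visible, and the 3 replicates of parenchyma from the center of the stem. All 6 came from untreated wild-type plants of the line Bd21-3, with an age of 19 days in the labels, grown in soil, and differ only in the tissue cut out by laser capture microdissection, in which a laser frees chosen cells from a frozen section. The other 6 libraries hold younger bundles, VB type 1 with no visible protoxylem and VB type 2 with 1 or 2 cells, and enter as values side by side and in 1 alternative fit over all 12 libraries.

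The samples have limits as models of the cell types. By the methods of the study, each library held bundles or parenchyma patches from 1 to 3 plants. A captured bundle holds xylem, phloem, procambium and the cells around them, and the RNA was amplified by PCR from an input of 500 pg. In such bulk samples fewer cells of a type and less RNA per cell cannot be told apart. Nascent bundles were found in the sections by their low chlorophyll, and VB type 3 was told from the younger types by its visible protoxylem. Whether this way of choosing tissue bears on the level of chlorophyll-related transcripts was not tested. The design text of the series speaks of 1 biological replicate and the methods of 3, so the p-values measure the spread between these libraries.

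A vascular bundle forms from procambium, a strand of dividing cells. Procambium gives rise to xylem, whose protoxylem cells thicken and lignify their walls, digest their contents and conduct water, and to phloem, which carries sugars and amino acids. Auxin moved by PIN carriers marks where the strand will run, and receptor kinases with their peptide ligands set how much it divides. The ground parenchyma of a young grass stem stores starch, keeps chloroplasts and expands by loading water into its vacuoles.

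Depth and the state of a single library need to be known before the results. Read pairs assigned to a transcript numbered 17385556, 24210355 and 21263667 in VB type 3 replicates 1, 2 and 3 and 27218311, 23553806 and 12888132 in parenchyma, and values of a group are given below in that order of replicates. A single transcript with no annotation in the sources used, Bradi2g12067.1, took 47.8%, 46.2% and 54.2% of the pairs in VB type 3, 15.1% and 21.0% in parenchyma replicates 1 and 2, and 86.3% in parenchyma replicate 3. This left 1768043 pairs for all other transcripts in parenchyma replicate 3, where 3 pairs correspond to 1.12 CPM (pairs per 1000000 of the TMM-scaled library total), against 0.0590 to 0.138 CPM in the other 5 libraries. Log2 CPM of parenchyma replicates 1 and 2 correlated across transcripts by 0.81, replicate 3 correlated with them by 0.689 and 0.717, and the VB type 3 libraries with each other by 0.785 to 0.811. Results are therefore given with and without parenchyma replicate 3.

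The markers place the libraries as labelled in part. XCP1 (Bradi2g39320.2), a cysteine protease of xylem cells that takes part in clearing their contents, held 176, 834 and 606 CPM in VB type 3 and 1.06, 15.0 and 8.98 CPM in parenchyma. The cellulose synthase of secondary walls, Bradi2g49912.1 (CESA8), held 1.50, 14.7 and 7.50 CPM in VB type 3 and at most 0.997 CPM in parenchyma. Bradi3g10270.1, an MtN3 family member, the family of sugar exporters, held 24.2, 242 and 33.7 CPM against 4.25, 0.665 and 4.12 CPM. The groups did not overlap in any of these markers. Other defining markers were near 0: the tracheary element gene Bradi3g13291.2 (TED7) had at most 0.414 CPM in any of the 6 libraries, the phloem regulator Bradi1g31837.1 (APL) had 4.28, 0.130 and 0.506 CPM in VB type 3, and the phloem protein Bradi2g00250.2 and the second MtN3 gene Bradi4g07570.1 had no pair in any library. IRX9 (Bradi1g16540.1), a glycosyltransferase of xylan synthesis fixed as a xylem marker, went the other way, with 7.74, 14.9 and 12.0 CPM in VB type 3 and 58.6, 61.8 and 73.4 CPM in parenchyma. So did the marker Bradi2g46120.1 (FLA11), a fasciclin-like protein of secondary walls, with 2.23, 0.163 and 6.99 CPM in VB type 3 and 8.42, 12.0 and 20.6 CPM in parenchyma.

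Which transcripts distinguish bundles with several protoxylem cells from parenchyma? Of 16427 transcripts tested, 145 (0.883%) were called at an adjusted p under 0.05 in edgeR's quasi-likelihood test, 23 higher in VB type 3 (0.140% of those tested) and 122 lower (0.743%). The 23 had a median difference of 4.67 on the log2 scale, or 25.4-fold, and the smallest was 2.47. The median of the 122 was -2.93, or 7.60-fold lower. The median over all transcripts tested was 0.02. In each of the 145 the 3 VB type 3 libraries lay all above or all below the 3 parenchyma libraries, which also held, uncalled or called, for 11.2% of all tested transcripts upwards and 10.1% downwards. Adjusted p-values of the called transcripts ran from 0.0215 to 0.0478, so none was far inside the threshold. The number of calls changed with the library left out: 83 were made without parenchyma replicate 1, 0 without replicate 2 and 148 without replicate 3, and 1, 0 and 2 without VB type 3 replicates 1, 2 and 3. In the same fits 1930 and 1606 transcripts had an unadjusted p under 0.05 without parenchyma replicate 2 and without VB type 3 replicate 2, where no call remained. The likelihood ratio test in edgeR, named in the methods of the study, called 702 (4.27%), 224 higher (1.36%) and 478 lower (2.91%), all 145 among them, and between 432 and 926 with any library left out. Scaling to library totals alone changed the number and the balance of calls, to 9 higher and 21 lower.

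**Figure D1:**
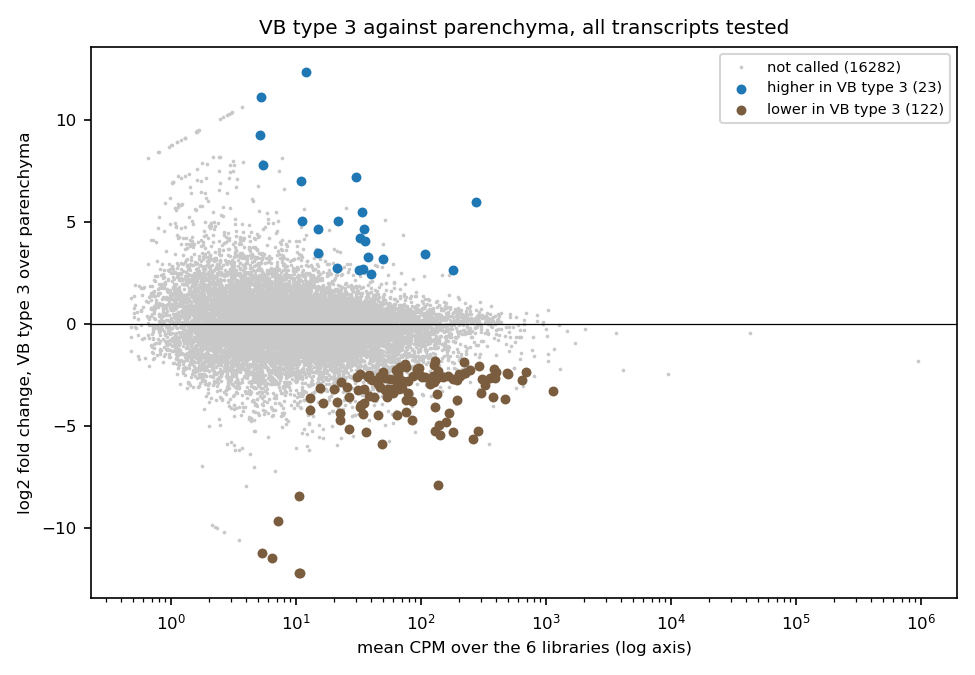
Log2 fold change of VB type 3 over parenchyma against mean CPM over the 6 libraries (log axis), 1 point per tested transcript. The 23 transcripts called higher are in blue and the 122 called lower in brown. Called transcripts lower in VB type 3 reach higher levels than those called higher, and many uncalled points at low CPM have large fold changes.

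The xylem protease XCP1 and a transcript related to a wall-thickening gene were called higher. XCP1, with the values above, averaged 539 ± 334 CPM in VB type 3 against 8.34 ± 6.98 CPM (each mean ± SD, n = 3), a difference of 6.02 ± 0.98 (log2 fold change ± SE, adjusted p = 0.0289). Without parenchyma replicate 3 it was 6.08 ± 1.25 with an adjusted p of 0.0706, the same size with the call lost. Bradi4g21220.1, whose closest Arabidopsis gene WAT1 (Walls Are Thin 1) encodes a vacuolar auxin transporter needed for fiber wall thickening, held 260, 203 and 125 CPM against 20.7, 11.1 and 22.8 CPM. Its difference of 3.44 ± 0.46 (adjusted p = 0.0215) was also called without replicate 3 (3.62, adjusted p = 0.0239). XCP1 and the WAT1-like transcript were the 2 members called higher among the 10 tested of the xylem, secondary wall and lignin list, IRX9 was the only member called lower (-2.48 ± 0.44, adjusted p = 0.0364, and 0.0514 without replicate 3), and the list median was 2.17. Without replicate 3 the WAT1-like transcript was the 1 call of the list. With all 6 libraries 0.140% of all transcripts tested were called higher. Cinnamoyl-CoA reductase Bradi3g36887.1 (CCR1), an enzyme of lignin precursor synthesis, held 75.8, 84.0 and 194 CPM against 26.8, 11.3 and 23.2 CPM and was not called (adjusted p = 0.0616).

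Wall proteins of several families were among the 23. Bradi3g56390.1, a fasciclin-like arabinogalactan protein (FLA2-like) of a family attached to the cell surface, had no pair in any parenchyma library and 9.46, 7.24 and 14.7 CPM in VB type 3. Against 3 pairs per parenchyma library this is at least 24.8-fold higher, or at least 147-fold against the deeper replicates 1 and 2 alone (adjusted p = 0.0365 and 0.0309). Its relative Bradi2g16560.2 (FLA13-like) was called in the opposite direction, with 41.7, 36.2 and 53.2 CPM in VB type 3 and 114, 284 and 377 CPM in parenchyma (-2.56 ± 0.47, adjusted p = 0.0404, and 0.0644 without replicate 3). The family thus had 1 member higher, 1 lower and 4 of 6 tested not called. Bradi2g16560.2 has a tandem neighbour, Bradi2g16570.1. Pairs that hit more than 1 transcript were not counted, and whether reads of either were assigned to the other was not tested. The expansin Bradi3g59460.1 (EXPA1-like), which loosens walls during growth, held 274, 255 and 410 CPM against 36.3, 33.0 and 78.2 CPM (2.68 ± 0.44, adjusted p = 0.0296, and 0.0192 without replicate 3), the only call among 10 expansins tested, whose median was 1.71. A callose synthase, Bradi2g40441.1 (GSL11-like), held 110, 60.4 and 96.4 CPM against 5.51, 8.70 and 15.0 CPM (3.23 ± 0.51, adjusted p = 0.0263, and 0.0209 without replicate 3).

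A membrane protein, a protease and a dirigent-like protein were also called higher. Bradi4g06396.1, of the UPF0497 family to which the Casparian strip membrane proteins belong, held 19.1, 16.8 and 29.4 CPM against 0.138, 0.138 and 0.374 CPM (7.01 ± 0.91, adjusted p = 0.0215, and 0.0192 without replicate 3). The aspartyl protease Bradi1g50760.1 held 11.3, 89.1 and 77.1 CPM against 0.0394, 0.305 and 1.87 CPM (7.25 ± 1.37, adjusted p = 0.0438, and 0.0314 without replicate 3). With XCP1 it made 2 members called higher of 10 proteases tested, against 0.140% called higher over all transcripts tested. A dirigent-like protein, of the family that guides the coupling of lignin and lignan precursors, Bradi4g41300.1, held 17.4, 119 and 61.8 CPM against 2.89, 0.194 and 1.12 CPM (5.50 ± 1.06, adjusted p = 0.0463), and lost its call without replicate 3 (adjusted p = 0.105). For the protease and the dirigent-like protein VB type 3 replicate 1 was far below replicates 2 and 3, and still above every parenchyma library.

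**Figure D2:**
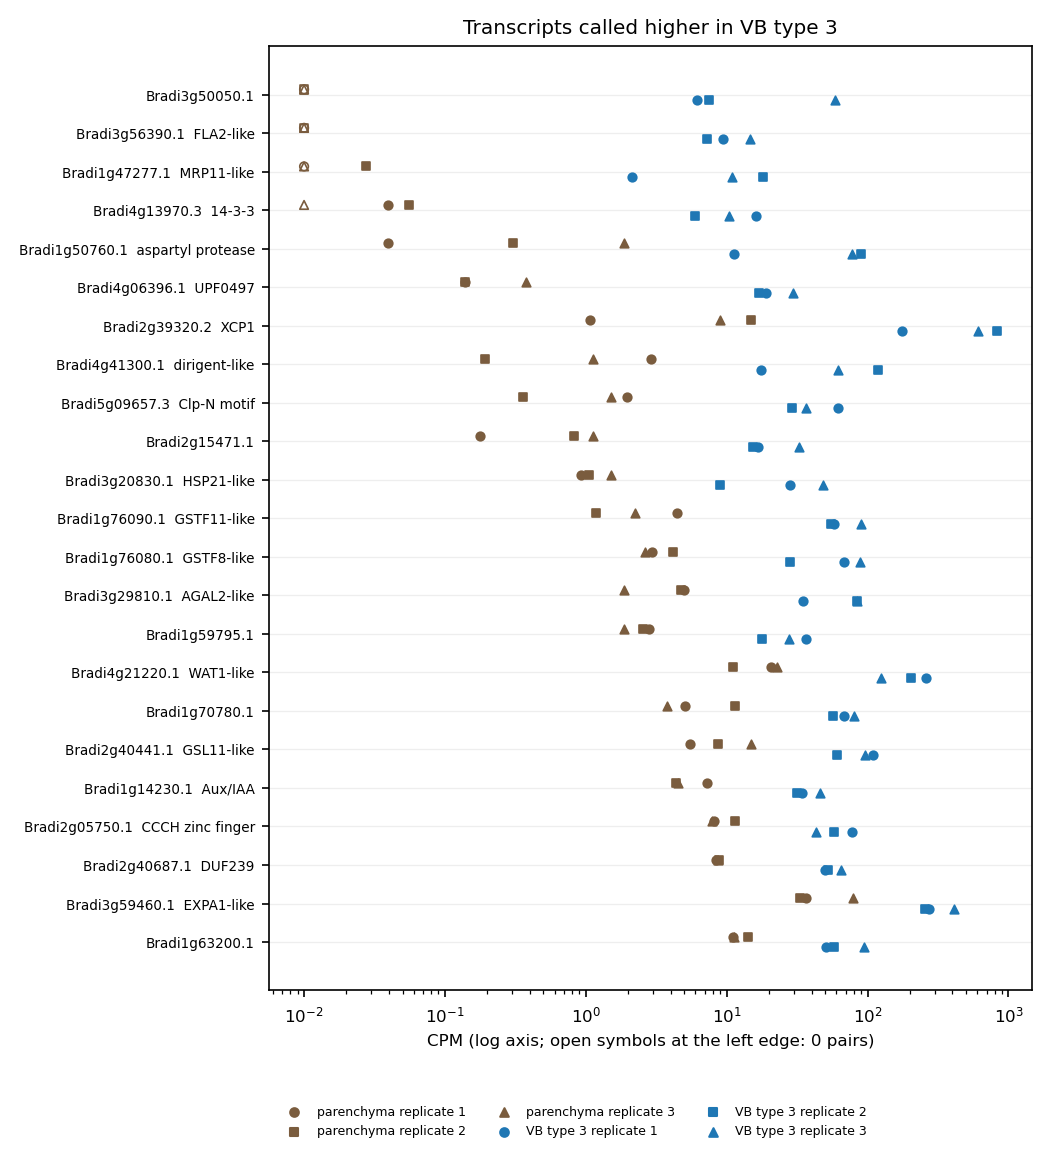
CPM (log axis) of the 23 transcripts called higher in VB type 3, 1 symbol per library, blue for VB type 3 and brown for parenchyma. Open symbols at the left edge stand for 0 pairs. In each row the blue symbols lie to the right of the brown ones. Bradi3g50050.1 and the FLA2-like transcript have no pair in parenchyma, so the position of their open symbols is not a level.

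An ABC transporter and a 14-3-3 protein were among the 23 as well. Bradi1g47277.1, an ABC transporter of the multidrug resistance-associated group (MRP11-like), had 2.14, 18.1 and 10.9 CPM in VB type 3 and 1 pair in all of parenchyma, in replicate 2. The pooled ratio is 1010.5, with a 95% counting interval of 181 to 39959 (adjusted p = 0.0445, and 0.0611 without replicate 3). It was the 1 call among 6 ABC transporters tested, 4 of them with positive values, and no member was called without replicate 3. A 14-3-3 protein, Bradi4g13970.3, one of the adaptors that bind phosphorylated proteins, had 16.2, 5.96 and 10.4 CPM against 4 pairs in parenchyma, a pooled ratio of 230.3 with a 95% counting interval of 89.6 to 848 (adjusted p = 0.0324, and 0.0357 without replicate 3). Such intervals cover counting error only, since PCR copies are not separate molecules, and 3 pairs in parenchyma replicate 3 correspond to 1.12 CPM.

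Both phi-class glutathione S-transferases on the list of 23 are tandem neighbours. Pairs that hit more than 1 transcript were not counted, and whether reads of either were assigned to the other was not tested. Bradi1g76090.1 held 57.9, 54.9 and 90.4 CPM against 4.41, 1.19 and 2.25 CPM (4.67 ± 0.63, adjusted p = 0.0215), and Bradi1g76080.1 held 68.5, 27.9 and 88.9 CPM against 2.93, 4.15 and 2.62 CPM (4.23 ± 0.59, adjusted p = 0.0215). Each was also called without replicate 3 (adjusted p = 0.0309 for either). Alpha-galactosidase Bradi3g29810.1 (AGAL2-like), which cleaves galactose from sugars and wall polymers, held 35.0, 83.7 and 84.7 CPM against 4.98, 4.76 and 1.87 CPM (4.07 ± 0.59, adjusted p = 0.0229). A small heat shock protein annotated as HSP21, the plastid chaperone of Arabidopsis, was the 1 call of 7 tested members of its family: Bradi3g20830.1 had 28.3, 9.03 and 48.6 CPM against 0.925, 1.05 and 1.50 CPM (4.69 ± 0.81, adjusted p = 0.0340, and 0.0514 without replicate 3). Its tandem neighbour Bradi3g20840.1 missed the threshold at 0.0726.

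An auxin-inducible Aux/IAA repressor, Bradi1g14230.1, held 34.2, 31.4 and 45.8 CPM against 7.24, 4.38 and 4.49 CPM (2.78 ± 0.52, adjusted p = 0.0431, and 0.0586 without replicate 3). It was the single call among 12 tested members of the auxin response list, which had a median of 1.95 and 9 members with positive values. A CCCH zinc finger protein, Bradi2g05750.1, had 77.3, 58.0 and 43.4 CPM against 8.13, 11.5 and 7.86 CPM (2.69 ± 0.46, adjusted p = 0.0327, and 0.0482 without replicate 3). Bradi5g09657.3, with double Clp-N motifs, held 61.6, 28.9 and 36.5 CPM against 1.95, 0.360 and 1.50 CPM (5.09 ± 0.78, adjusted p = 0.0240, and 0.0416 without replicate 3), and Bradi2g40687.1, a protein of unknown function (DUF239), was tight in both groups with 50.1, 52.3 and 64.5 CPM against 8.44, 8.89 and 8.61 CPM (2.68 ± 0.43, adjusted p = 0.0270, and 0.0309 without replicate 3).

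The remaining 5 of the 23 had no described function in the annotation used. Bradi3g50050.1 had no pair in parenchyma and 6.14, 7.46 and 59.0 CPM in VB type 3, at least 57.4-fold higher (adjusted p = 0.0348, and 0.0506 without replicate 3). One library, VB type 3 replicate 3, carries most of its level. Bradi1g59795.1 held 36.6, 17.7 and 27.8 CPM against 2.79, 2.55 and 1.87 CPM (3.48 ± 0.62, adjusted p = 0.0364). The other three, Bradi2g15471.1, Bradi1g70780.1 and Bradi1g63200.1, differed by 5.09 ± 0.95, 3.30 ± 0.54 and 2.47 ± 0.45 with adjusted p-values of 0.0422, 0.0289 and 0.0372.

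Among the lists, that of the light reactions of photosynthesis had the most members called lower. It also had the most members tested, and by share the lipid-transfer family, with 8 of 14 called lower, was ahead of it. Of 33 tested members of the light reactions list, 16 were called lower, against 0.743% over all transcripts tested, and none higher. All 33 had negative values, and the list median was -2.21 against 0.02 over all transcripts. This list and most others were drawn from the leading rows of the study's own results table for these libraries, so their direction is not independent evidence. Photosystem II subunit R (Bradi3g17640.1) held 174, 153 and 136 CPM in VB type 3 and 646, 896 and 969 CPM in parenchyma (-2.44 ± 0.33, adjusted p = 0.0215). The Rieske subunit of cytochrome b6f, Bradi1g24980.1 (PETC), held 28.5, 42.7 and 39.2 CPM against 191, 237 and 206 CPM (-2.52 ± 0.35, adjusted p = 0.0215). Both were also called without replicate 3, at 0.0209 each. The light-harvesting protein LHCB1 transcript Bradi4g37210.1 held 426, 613 and 358 CPM against 791, 3812 and 1814 CPM without a call (-2.20 ± 0.54, adjusted p = 0.0978).

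Summed over the whole light reactions list, the level was 3235, 3898 and 2236 CPM in VB type 3 and 8055, 18781 and 17621 CPM in parenchyma. The VB libraries were all below the parenchyma ones, and parenchyma replicate 1 was the lowest of its group. Photosynthetic transcripts were therefore still present in the captured bundles, and how many came from neighbouring cells was not tested. Without parenchyma replicate 3 the list had 12 of 33 called lower and a median of -2.03, and with library totals alone 0 of 33 were called.

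Some members of 2 other chloroplast lists were called lower, and all tested members of both lists came from the study's own table for these libraries. The share called lower over all transcripts tested was 0.743%. In the carbon fixation and chlorophyll synthesis list, 3 of 6 tested members were called lower: the small subunit of Rubisco Bradi3g26391.1, with 68.0, 146 and 123 CPM against 328, 694 and 942 CPM (-2.54 ± 0.47, adjusted p = 0.0404), and the protochlorophyllide reductases Bradi5g26230.1 and Bradi3g57380.1. Without replicate 3 a single member of the 6 was called, and the Rubisco subunit had an adjusted p of 0.0644. Plastid ribosomal proteins and chaperonins had 4 of 10 called lower, with a median of -2.24 and all 10 values negative, and 3 of 10 without replicate 3. The plastid ribosomal protein S1 transcript Bradi1g64130.2 had 19.2, 30.0 and 32.7 CPM against 123, 113 and 385 CPM (-2.92 ± 0.54, adjusted p = 0.0422).

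Enzymes that make and break down starch were also among those called lower. All 13 tested members of the starch list had negative values (12 of 13 with library totals alone), and the median was -2.12. Of these, 4 were called lower, against 0.743% over all transcripts tested, and 0 with library totals alone. All 4 were among the 8 members drawn from the study's own results for these libraries, and the 5 others had a median of -1.40. ADP-glucose pyrophosphorylase, which makes the glucosyl donor for starch, accounted for 3 of the 4: Bradi3g22330.1 held 25.8, 31.9 and 36.3 CPM against 258, 268 and 136 CPM (-2.82 ± 0.40, adjusted p = 0.0224), Bradi2g14970.1 differed by -3.17 ± 0.58 (adjusted p = 0.0404) and Bradi4g27570.2 by -2.15 ± 0.40 (adjusted p = 0.0420, and 0.0609 without replicate 3). The fourth was the alpha-glucan phosphorylase Bradi1g08070.1, with 13.5, 18.8 and 18.9 CPM against 96.4, 107 and 153 CPM (-2.80 ± 0.40, adjusted p = 0.0224). Starch branching enzyme Bradi5g09170.2, with 29.0, 74.4 and 18.2 CPM against 95.3, 289 and 199 CPM, was not called (adjusted p = 0.122).

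**Figure D3:**
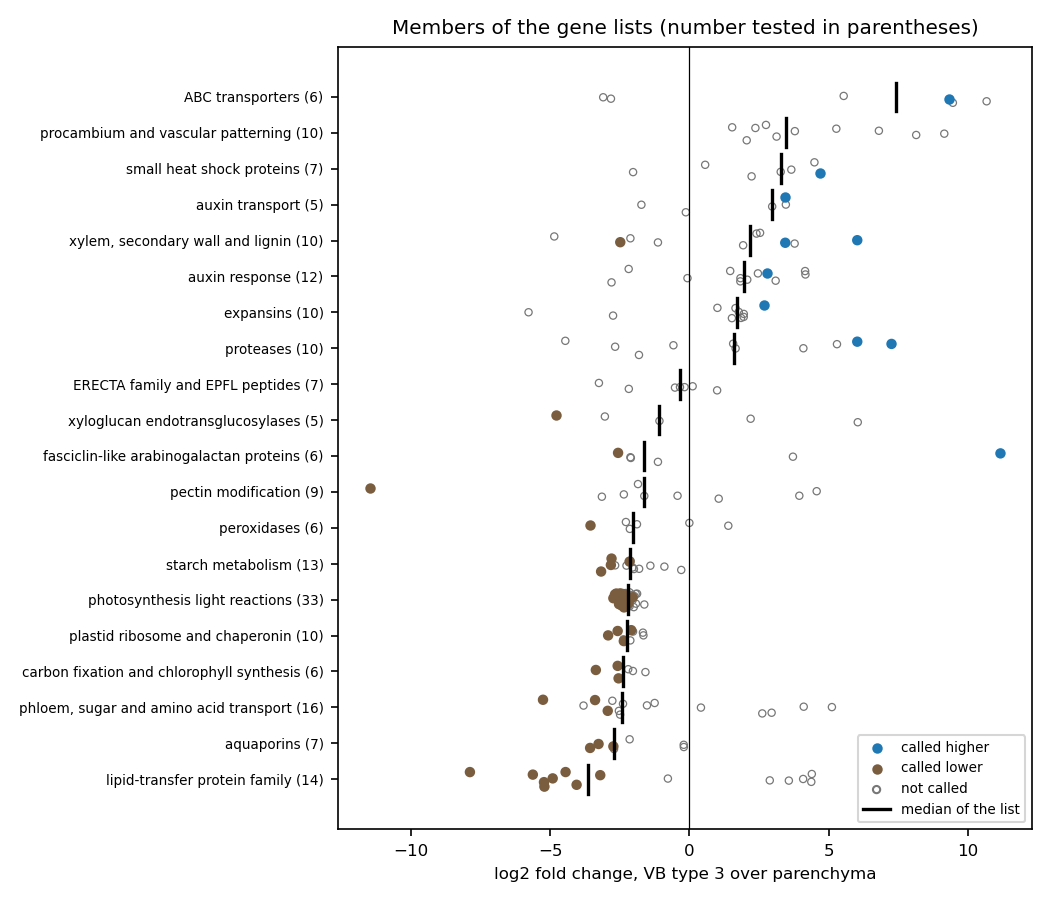
Log2 fold change of VB type 3 over parenchyma for the tested members of 20 gene lists, 1 point per transcript, with called members filled and the list median as a black bar. Points are spread vertically at random for legibility. All photosynthesis and starch members lie left of 0, all procambium members lie right of 0 without a call, and the lipid-transfer family holds 8 members called lower, 1 uncalled negative and 5 uncalled positive members.

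Large differences downwards were frequent among the listed members of the lipid-transfer protein family, small secreted proteins that bind lipids and often belong to the outer layers of an organ. Of 14 tested members 8 were called lower and none higher, against 0.743% called lower over all transcripts tested, and the median was -3.63. All 8 were among the 9 members drawn from the study's own results for these libraries, so the count is not independent evidence. The 5 members from other sources had 0 calls and a median of 3.57. Without parenchyma replicate 3 the list had 7 called lower of 16 tested and a median of -1.51. Bradi1g78240.1 held 0.501, 0.847 and 2.16 CPM in VB type 3 and 232, 510 and 82.4 CPM in parenchyma (-7.88 ± 0.89, adjusted p = 0.0215, and 0.0128 without replicate 3). Its tandem neighbour Bradi1g78250.1 held 7.19, 3.65 and 9.52 CPM against 188, 475 and 95.1 CPM (-5.22 ± 0.69, adjusted p = 0.0215, and 0.0160 without replicate 3).

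Bradi5g23770.1 was level across parenchyma at 464, 593 and 485 CPM and had 2.05, 20.3 and 8.93 CPM in VB type 3 (-5.62 ± 0.76, adjusted p = 0.0215, and 0.0264 without replicate 3). The other 5 called members, Bradi3g33060.1, Bradi2g58530.1, Bradi1g30420.1, Bradi1g48160.1 and Bradi3g58060.1, differed by -5.21, -4.91, -4.45, -4.05 and -3.20. The family did not move as a whole. Bradi5g09610.1 had 0.0455, 236 and 176 CPM in VB type 3 and 6.08, 5.26 and 8.98 CPM in parenchyma, high in VB replicates 2 and 3 only, and was not called (4.37 ± 1.57, adjusted p = 0.278). Epidermal markers, given beside this family, were near 0: all 4 members of the cuticle and wax list were below the filter, with a summed level of at most 0.0394 CPM in parenchyma and at most 4.37 CPM in VB type 3.

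Water channels of the vacuolar and the plasma membrane were among the calls. The tonoplast aquaporin Bradi1g75290.1 (TIP1;1-like) held 263, 269 and 113 CPM in VB type 3 and 1800, 3111 and 1285 CPM in parenchyma (-3.26 ± 0.48, adjusted p = 0.0240, and 0.0209 without replicate 3). At the plasma membrane, Bradi1g28760.1 (PIP2;1-like) held 125, 229 and 155 CPM against 1010, 1886 and 479 CPM (-2.73 ± 0.51, adjusted p = 0.0422, and 0.0209 without replicate 3). With Bradi2g62520.1 (TIP1;3-like; -3.57 ± 0.69, adjusted p = 0.0463), 3 of 7 tested aquaporins were called lower. Over all transcripts tested 0.743% were called lower. All 3 called aquaporins were among the 4 members drawn from the study's own results for these libraries. The 3 members from other sources had 0 calls and a median of -0.21. The tonoplast channel Bradi2g31800.2 had 111, 156 and 121 CPM against 137, 87.1 and 224 CPM, overlapping values with a difference of -0.21 ± 0.40.

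Sugar and amino acid carriers gave calls only downwards. The polyol and monosaccharide carrier Bradi1g71370.1 (PLT5-like) held 1.00, 1.43 and 3.08 CPM against 50.7, 85.4 and 74.9 CPM (-5.26 ± 0.61, adjusted p = 0.0215, and 0.0192 without replicate 3). The amino acid exporter Bradi2g43062.1 (BAT1-like) held 31.5, 23.2 and 15.7 CPM against 166, 204 and 368 CPM (-3.39 ± 0.46, adjusted p = 0.0215, and 0.0209 without replicate 3). Together with the amino acid transporter Bradi1g35530.1 (-2.93 ± 0.42, adjusted p = 0.0224) they made 3 called of 16 tested on the phloem, sugar and amino acid transport list, with a median of -2.44. All 3 were among the 12 members drawn from the study's own results for these libraries. The 4 from other sources had 0 calls and a median of -0.42. The share called lower over all transcripts tested was 0.743%. The phloem MtN3 gene Bradi3g10270.1 on the same list differed by 5.11 ± 1.08 and missed the threshold (adjusted p = 0.0640, and 0.121 without replicate 3).

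Nitrate assimilation was represented by both of its enzymes, named here by the size of their differences and not as members of a list. Nitrate reductase Bradi3g37940.1 held 0.683, 1.30 and 2.48 CPM against 71.2, 58.1 and 25.5 CPM (-5.12 ± 0.71, adjusted p = 0.0215, and 0.0192 without replicate 3). Nitrite reductase Bradi3g57990.1, which was picked after its values were seen, held 1.55, 6.06 and 3.45 CPM against 92.7, 61.0 and 30.7 CPM (-4.06 ± 0.67, adjusted p = 0.0296, and 0.0241 without replicate 3). Terpenoid cyclases showed gaps of like size: ent-kaurene synthase Bradi5g21383.7, on the route to gibberellins, had 0.501, 0.815 and 3.68 CPM against 113, 112 and 62.9 CPM (-5.85 ± 0.82, adjusted p = 0.0215), and terpene synthase Bradi4g04987.2 had 0.956, 2.48 and 15.7 CPM against 187, 409 and 235 CPM (-5.44 ± 0.98, adjusted p = 0.0364, and 0.0587 without replicate 3).

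**Figure D4:**
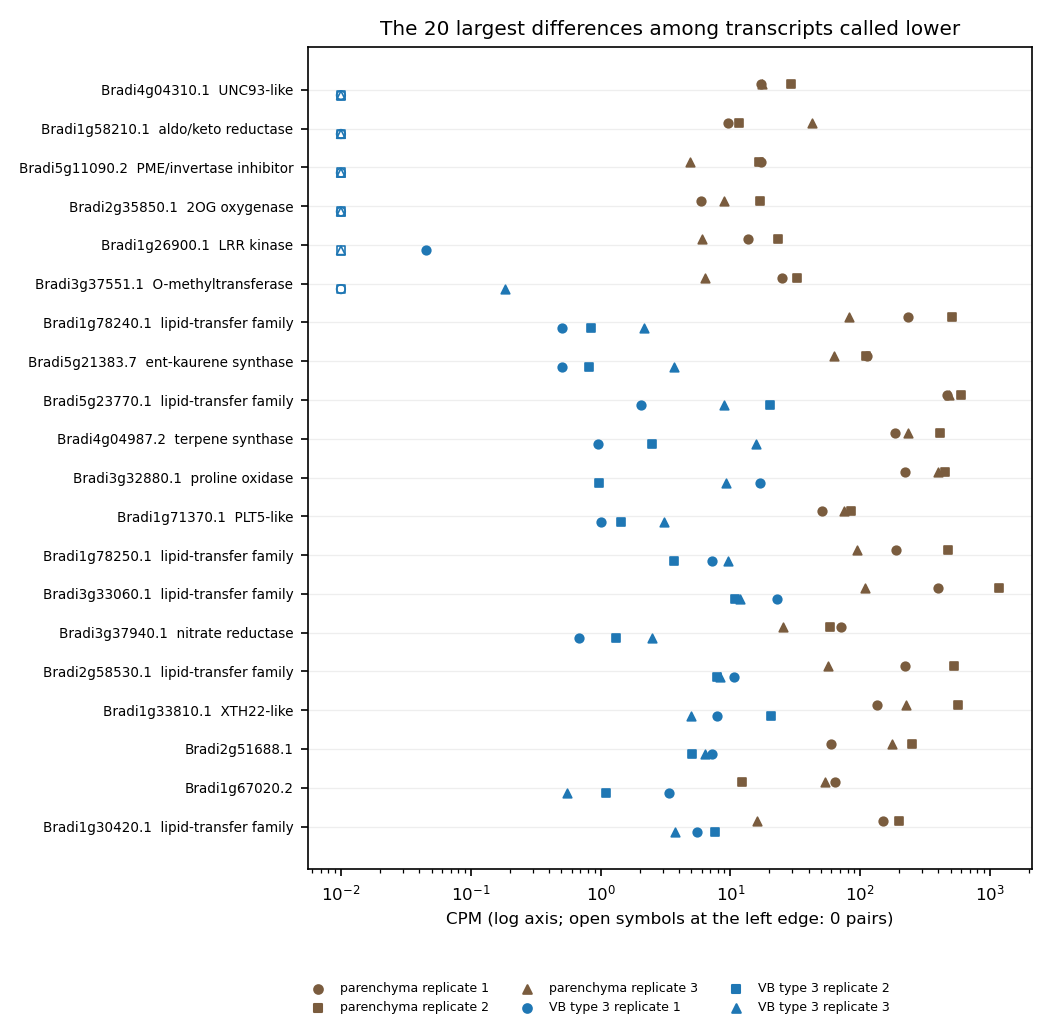
CPM (log axis) of the 20 transcripts with the largest differences among those called lower in VB type 3, 1 symbol per library, blue for VB type 3 and brown for parenchyma, with open symbols at the left edge for 0 pairs. The top 4 rows have no pair in VB type 3, and 6 rows belong to the lipid-transfer family.

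Exactly 4 called transcripts had no pair in any VB type 3 library. Bradi4g04310.1, a major facilitator transporter related to UNC93, held 17.3, 29.5 and 17.6 CPM in parenchyma and was at least 173-fold lower in VB type 3, against 3 pairs per library (adjusted p = 0.0215, and 0.0209 without replicate 3). The aldo/keto reductase Bradi1g58210.1 had 9.54, 11.7 and 42.3 CPM in parenchyma and was at least 171-fold lower with replicate 3 and at least 85.4-fold lower without it (adjusted p = 0.0240 and 0.0516). Bradi5g11090.2, an inhibitor of invertase or pectin methylesterase, had 17.2, 16.6 and 4.87 CPM (at least 104-fold lower, adjusted p = 0.0309) and was the 1 call among 9 tested of the pectin modification list, whose median was -1.62, and the oxygenase Bradi2g35850.1 had 5.96, 16.8 and 8.98 CPM (at least 85.4-fold lower, adjusted p = 0.0364).

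Wall enzymes of growth were mixed. The xyloglucan endotransglucosylase Bradi1g33810.1 (XTH22-like), which cuts and rejoins xyloglucan chains, held 7.92, 20.7 and 5.01 CPM against 134, 564 and 224 CPM (-4.78 ± 0.73, adjusted p = 0.0240, and 0.0309 without replicate 3) and was the 1 call of 5 tested. Its relative Bradi1g27867.1 (XTH32-like), with 12.3, 29.0 and 104 CPM against 10.04, 14.5 and 6.74 CPM, was not called (adjusted p = 0.245). Among 6 tested peroxidases, Bradi1g33740.1 was called lower (-3.57 ± 0.65, adjusted p = 0.0381, and 0.0594 without replicate 3).

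The procambium genes were all on the VB side without passing the test. All 10 tested members of the procambium and vascular patterning list had positive values, with a median of 3.45, and 0 were called by edgeR's quasi-likelihood test. All 10 had an unadjusted p under 0.05, and 6 were called by the likelihood ratio test, 7 by DESeq2 and 1 by limma-voom. Of the 10, 9 came from the study's own results for these libraries, so neither their direction nor these counts are independent evidence. The ortholog of TMO6 (Bradi1g26570.1), a Dof transcription factor downstream of auxin, was tight at 15.8, 17.3 and 19.9 CPM against 2.56, 2.71 and 2.62 CPM (2.75 ± 0.69, adjusted p = 0.105). The ortholog of PXY (Bradi3g17567.1), the receptor kinase that keeps procambium dividing, had 20.5, 9.61 and 36.5 CPM against 4.13, 2.35 and 0.749 CPM (3.13 ± 0.83, adjusted p = 0.125). The Dof factor Bradi3g51510.3 had 112, 55.3 and 83.6 CPM against 9.03, 18.2 and 34.1 CPM (2.05 ± 0.54, adjusted p = 0.125), again with no overlap.

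The closest of the list to the threshold was Bradi1g30160.1, a CLAVATA1-like receptor kinase, with 8.01, 27.3 and 10.9 CPM in VB type 3 against 3 pairs in all of parenchyma. Its pooled ratio is 502 with a 95% counting interval of 171 to 2437, and its adjusted p was 0.0516 with replicate 3 and 0.0392 without it. Summed over the list the level was 229, 166 and 209 CPM in VB type 3 and 22.4, 32.6 and 54.3 CPM in parenchyma.

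Auxin carriers had 1 call of 5 tested, the WAT1-like transcript, and none was a PIN carrier, the group that moves auxin between cells. PIN1a (Bradi1g45020.1) held 99.6, 91.5 and 130 CPM against 28.6, 8.72 and 2.62 CPM (2.97 ± 0.72, adjusted p = 0.0960, and 0.0898 without replicate 3). SoPIN (Bradi4g26300.2) held 19.2, 29.3 and 40.9 CPM against 6.77, 0.111 and 0.749 CPM (3.46 ± 1.16, adjusted p = 0.236). For both the groups did not overlap, whereas PIN1b (Bradi3g59520.1) overlapped, at 2.23, 12.3 and 19.5 CPM against 29.4, 7.20 and 0 CPM.

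The ERECTA receptor family and its EPFL peptide ligands, which act in stem growth and vascular patterning in Arabidopsis, had 0 calls among 7 tested by edgeR's quasi-likelihood test, its likelihood ratio test, DESeq2 or limma-voom, and 2 had an unadjusted p under 0.05. BdERECTA (Bradi1g46450.1) held 227, 225 and 112 CPM in VB type 3 and 155, 197 and 170 CPM in parenchyma, a difference of 0.11 ± 0.37 with overlapping groups. BdERECTA-like1 (Bradi1g49950.1) held 27.2, 68.8 and 78.0 CPM against 36.1, 33.0 and 18.0 CPM (0.99 ± 0.50, adjusted p = 0.469). EPFL1 (Bradi3g38740.1) was below parenchyma in every VB library, with 8.96, 4.79 and 6.90 CPM against 10.2, 17.6 and 66.6 CPM, and its difference of -2.18 ± 0.75 (adjusted p = 0.249) shrank to -1.01 without replicate 3.

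EPFL9 (Bradi2g58540.1) had 27.3 CPM in parenchyma replicate 3 and at most 2.54 CPM in the other 5 libraries, so that -3.25 ± 1.38 with replicate 3 became -0.73 without it. EPFL2, EPFL4 and EPFL6 (Bradi1g10080.1, Bradi1g74380.1 and Bradi2g22340.1) overlapped between the groups with differences of -0.52 ± 1.63, -0.34 ± 0.73 and -0.18 ± 1.28, whose signs turned under other settings, and EPFL3 was below the filter. The ethylene-forming enzyme Bradi4g31820.1 held 4.78, 20.7 and 13.3 CPM against 94.9, 156 and 31.8 CPM, without overlap and without a call (-2.87 ± 0.69, adjusted p = 0.0950, and 0.0514 without replicate 3).

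Without parenchyma replicate 3, 156 of 18226 transcripts (0.856%) were called, 28 higher (0.154%) and 128 lower (0.702%). The 2 lists shared 104 transcripts, 14 higher and 90 lower, which is 71.7% of the calls made with replicate 3 and 66.7% of those made without it. All 145 kept their sign, which leaving out a library could hardly turn, since the groups did not overlap in any of them. The 41 that lost their call had adjusted p-values of 0.0506 to 0.105. Of the 52 gained, 14 were higher and 38 lower, and 7 of them had not passed the filter with all 6 libraries. In all 14 gained higher transcripts replicate 3 was the highest parenchyma library, and in all 38 gained lower ones it was the lowest. Gained calls are those that appear once replicate 3 is dropped, so this position is largely built into their selection.

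**Figure D5:**
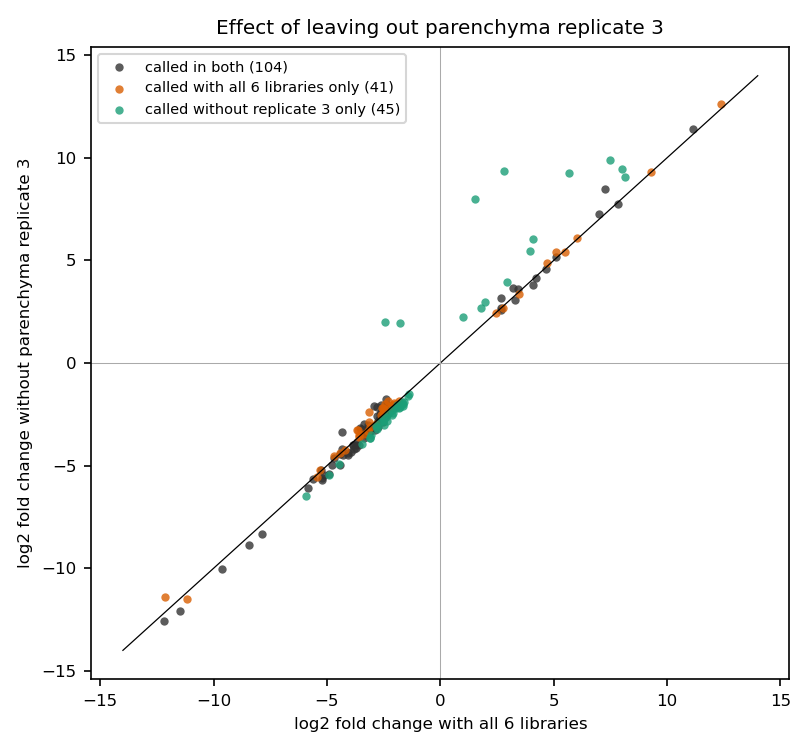
Log2 fold change with all 6 libraries (x axis) and without parenchyma replicate 3 (y axis) for transcripts called in either fit and tested in both. Points near the line changed little, and 2 of the transcripts called without replicate 3 only have opposite signs in the 2 fits. They are Bradi2g12067.1 and Bradi4g40287.1.

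Some of the gained transcripts, picked here after their values were seen, differ by what replicate 3 alone held. Growth-regulating factor Bradi1g12650.1 (GRF2-like), of a family of regulators of cell proliferation, had 37.2, 16.8 and 8.24 CPM in VB type 3 and 0.118, 0.0277 and 22.8 CPM in parenchyma, and its difference went from 1.54 (adjusted p = 0.787) to 8.01 (adjusted p = 0.0294). The plantacyanin Bradi1g11240.1 had 16.1, 25.7 and 11.0 CPM against 0.0197, 0.0277 and 8.61 CPM and went from 2.82 (adjusted p = 0.581) to 9.34 (adjusted p = 0.0192). The receptor kinase Bradi4g21830.1 (BAM1-like) had 45.2, 47.4 and 50.9 CPM against 2.56, 3.60 and 13.5 CPM, and went from 2.95 (adjusted p = 0.0863) to 3.96 (adjusted p = 0.0209). What sets replicate 3 apart was not tested.

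In the younger bundles, which share the parenchyma libraries, the same transcripts had the following values on a scaling over all 12 libraries. XCP1 had a median of 595 CPM (249 to 693) in VB type 1 and 872 CPM (150 to 1009) in VB type 2. The HSP21-like Bradi3g20830.1 had 153 CPM (23.7 to 166) in VB type 1 and 91.4 CPM (19.5 to 151) in VB type 2. Bradi3g50050.1 had 0.770 CPM (0 to 9.15) and 0.124 CPM (0 to 0.296).

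Bradi1g59795.1 had 9.97 CPM (7.39 to 11.1) in VB type 1 and 12.4 CPM (7.80 to 14.6) in VB type 2, against 21.1 to 43.9 CPM in VB type 3 on that scaling, so every younger library lay below. The XTH22-like Bradi1g33810.1 had 11.2 CPM (7.93 to 53.1) in VB type 1 and 142 CPM (28.7 to 159) in VB type 2. Differences between the bundle types were not tested.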

How the data were processed

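Per the labels, polyA RNA was amplified with a SMARTer ultra low input kit and sequenced as read pairs, unstranded per the labels, whereas the methods of the study call them stranded. The authors trimmed reads, removed ribosomal reads, aligned them with Bowtie2 to primary transcripts of Brachypodium and deposited, per library, the count of read pairs in which both reads hit a single transcript. Pairs on near-identical paralogs were thus dropped (10.4 to 14.5% of reads in the 6 libraries had multiple hits), and, if the labels hold, a transcript cannot be told from its antisense partner. The build was not given in the sources used here. Groups were taken from the labels.

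The deposited pair counts of the 6 libraries were scaled by TMM and tested with edgeR 4.0.16 (quasi-likelihood F-test, R 4.3.3) after a filter of 1 CPM or more in 3 or more of 6 libraries (2 of 5 without parenchyma replicate 3), with Benjamini-Hochberg adjustment over all transcripts tested and a threshold of 0.05. The SE is the log2 fold change divided by the square root of F. Printed CPM use TMM-scaled totals, whereas the filter used CPM on the library totals before TMM scaling. The TMM factors ran from 0.207 in parenchyma replicate 3 to 1.88 in parenchyma replicate 1. A filter value of 1 CPM is therefore not 1 CPM as printed. A level of 0 was taken as up to 3 pairs per library. Pooled ratios carry a 95% exact (Clopper-Pearson) counting interval. The biological coefficient of variation was 0.822. Scripts were tested on simulated counts.

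Alternatives used DESeq2 1.42.0, limma 3.58.1 and other scalings, filters and library sets. By the rule for named transcripts, the candidates were every transcript called higher, the 20 largest non-overlapping differences and up to 20 calls kept without parenchyma replicate 3 among those lower, called list members, up to 4 of the highest uncalled members of a list, the genes named by the study and the dominant transcript. All called higher are named, and of the others a part, chosen after their values were seen. The members and the 21 lists were chosen with earlier results of these data known. Lists (310 of 312 members found, none trimmed by value) and gene names rest on best Arabidopsis and rice hits in the supplementary tables of the study, of which only the leading rows were used here. Of 198 list members tested, 54 were called. Of those tested, 151 came from the rows for these libraries, with all 54 calls, and 47 from other sources, with 0 calls in edgeR's quasi-likelihood test and 13 at an unadjusted p under 0.05.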

Additional observations from a re-analysis of the deposited data

How the results depend on the processing

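Each of the 145 called transcripts kept its sign under every alternative run, while the number of calls depended on the test, the scaling and each library. The groups did not overlap in any of the 145. Leaving out a library, changing the test or adding a block could therefore hardly turn a sign, and kept signs do not test the calls. Against 145 calls (23 higher, 122 lower), 147 (23 and 124) were made with RLE size factors, 159 (23 and 136) with the dominant transcript removed and 110 (16 and 94) with the counts of single reads. Scaling to library totals without TMM gave 30 (9 and 21), 20 of them shared with the 145. No filter on low counts gave 570 (114 and 456), and a stricter one 303 (91 and 212). The likelihood ratio test gave 702 (224 and 478), DESeq2 929 (297 and 632), limma-voom with quality weights 304 (39 and 265) and a fit over all 12 libraries 284 (90 and 194), sharing 145, 144, 129 and 116 of the 145. With a library left out, the quasi-likelihood test gave 0 to 148 calls (0 to 28 higher, 0 to 120 lower) and the likelihood ratio test 432 to 926 (122 to 331 and 302 to 595). Without parenchyma replicate 3 and with its own filter, an alternative chosen after the data were seen, the likelihood ratio test, gave 1191. The cause of these differences was not tested.

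A block for the replicate number left 1 call (1 higher, 0 lower) in the quasi-likelihood test, with all 145 keeping their sign, and 585 (179 and 406) in the likelihood ratio test. Deviations of samples with the same number correlated by -0.00964, -0.0376 and -0.0296, which gave no sign of pairing. Such deviations from means of 3 libraries cannot show whether samples with the same number were paired.

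Of the transcripts named, 8 changed sign under an alternative, none of them called in the 6 libraries. Bradi2g12067.1 (-1.78) had 0.28 with library totals, 0.80 with limma-voom, 0.51 with the block and -2.37 to 1.97 with a library left out, the highest without parenchyma replicate 3. Bradi4g40287.1 (-2.43) had 0.84 with limma-voom, 0.47 with the block and -3.03 to 2.02 with a library left out. The tonoplast channel Bradi2g31800.2 (-0.21) had 0.080, 0.033 and 0.21 with library totals, limma-voom and without that library, and down to -0.48 with others left out. PIN1b (Bradi3g59520.1, -0.13) had 0.24 with limma-voom, 0.73 and 0.85 with the block in the quasi-likelihood and likelihood ratio tests, 1.55 and 1.59 without parenchyma replicate 1, 0.36 and 0.38 without VB type 3 replicate 1, and down to -0.76 without others. BdERECTA (Bradi1g46450.1, 0.11) had -0.042 and -0.03 without VB type 3 replicates 1 and 2. EPFL2 (Bradi1g10080.1, -0.52) had 1.22 with library totals, 2.40 with limma-voom, 0.83 with the block in either test and -1.15 to 2.08 with a library left out. EPFL4 (Bradi1g74380.1, -0.34) had 0.12 with library totals and -1.23 to 0.23 with a library left out. EPFL6 (Bradi2g22340.1, -0.18) had 0.43 and 0.49 with the block in the quasi-likelihood and likelihood ratio tests and -0.70 to 1.10 with a library left out. With library totals the ERECTA and EPFL list had 4 positive and 3 negative values in place of 2 and 5, and the aquaporin, starch, lipid-transfer and pectin lists had 1 more positive value each. In that setting no member of the light reactions, carbon fixation, plastid ribosome, starch or aquaporin lists was called.

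Each group had 3 libraries, and 3 pairs correspond to 1.12 CPM in parenchyma replicate 3 against 0.0590 to 0.138 CPM in the others. The biological coefficient of variation was 0.822 with that library and 0.860 without it.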

Other observations

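Further metabolic and regulatory transcripts were lower in VB type 3, picked here after their values were seen. Fructose-bisphosphate aldolase Bradi4g24367.1 (FBA2-like), which acts in the Calvin cycle in the chloroplast, held 100, 126 and 70.6 CPM in VB type 3 and 549, 732 and 579 CPM in parenchyma (-2.65 ± 0.36 in edgeR's quasi-likelihood test, adjusted p = 0.0215; 0.0209 without replicate 3). Hydroxypyruvate reductase Bradi3g00330.1, an enzyme of photorespiration, held 1.27, 4.60 and 3.36 CPM against 78.3, 55.8 and 62.9 CPM (-4.41 ± 0.59, adjusted p = 0.0215; 0.0226 without replicate 3). The proline oxidase Bradi3g32880.1 held 16.9, 0.978 and 9.25 CPM against 223, 448 and 394 CPM (-5.30 ± 0.89, adjusted p = 0.0309), and its call was lost without replicate 3 (adjusted p = 0.0516).

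A sulfate transporter, Bradi1g74420.1 (SULTR3;1-like), held 8.96, 6.32 and 3.08 CPM against 40.1, 72.3 and 98.8 CPM (-3.52 ± 0.58, adjusted p = 0.0290; 0.0470 without replicate 3). The homeodomain-leucine zipper factor Bradi1g73190.1 (ATHB13-like) held 5.69, 5.61 and 2.35 CPM against 68.3, 77.6 and 48.7 CPM (-3.83 ± 0.53, adjusted p = 0.0215; 0.0209 without replicate 3), with groups far apart and libraries close within each.

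Bradi4g40287.1, with no annotation in the sources used, followed the dominant transcript Bradi2g12067.1 from library to library. It held 2720, 2551 and 3660 CPM in VB type 3 and 568, 906 and 46682 CPM in parenchyma. Its difference was -2.43 ± 1.30 with parenchyma replicate 3 (adjusted p = 0.502) and 2.02 without it (adjusted p = 0.0325), and that of Bradi2g12067.1 was -1.78 ± 1.25 (adjusted p = 0.638) and 1.96 (adjusted p = 0.0255). Why they move together was not tested.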
